A study of Mus musculus with 8 samples.

Results

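The 36 genes described here are a fixed list of symbols that cover the synthesis of cholesterol and of fatty acids, the sterol-sensing regulators of both, and sterol transport. The list holds 7 genes of the mevalonate pathway, 11 genes that lead from squalene to cholesterol, 4 genes of the sterol regulatory element-binding protein (SREBP) system, 9 genes of fatty acid synthesis and desaturation, and 5 genes of sterol transport and the liver X receptor (LXR). Of these, 34 were listed in both expression tables, among 13506 genes at E11.5 and 13413 genes at E14.5. *Hmgcs1* and *Acacb* were not analysed here for expression.

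RNA-seq was done on dissected sympathetic ganglia of mouse embryos, with 8 libraries in 4 groups of 2. At E11.5, *Wnt1-Cre;Isl1 f/f* embryos (CKO, labelled Isl1-/-) were compared with *Wnt1-Cre;Isl1 +/+* embryos (control, labelled Wild type), and both carried the *Rosa26-tdTomato* reporter. At E14.5, *Isl1 f-neo/f-neo* embryos (hypomorphic, labelled Isl1 mutation) were compared with wildtype embryos. Each library was made from ganglia pooled from about 10 embryos. *Wnt1-Cre* recombines in neural crest lineages, which form the glia of the ganglion as well as its neurons, whereas the hypomorphic allele is present in the whole embryo.

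Expression was deposited as FPKM, a count of fragments scaled to transcript length and to the fragments mapped in a library, so that levels can be set side by side between genes. Each genotype has 1 FPKM per gene for both of its libraries together. Neither the depth nor the spread between libraries can be known from these values. No difference below was tested here, and these values allow no check between replicates. Differences are log2 ratios of FPKM + 0.1 (mutant over control), and a gene was counted as lower or higher at 1.5-fold or, where stated, at 1.2-fold. *Isl1* itself was at 133 FPKM in control and 40.0 FPKM in CKO ganglia at E11.5, and at 162 FPKM in wildtype and 83.1 FPKM in hypomorphic ganglia at E14.5. All 12 sympathetic neuron markers on a fixed list were listed at both stages, led by *Tubb3* and *Stmn2*, a neuronal tubulin and a microtubule regulator.

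Cells make cholesterol from acetyl-CoA through mevalonate, isoprenoid diphosphates, squalene and lanosterol, and they make fatty acids from the same acetyl-CoA through malonyl-CoA. When membrane sterol is low, SCAP carries the SREBP precursors from the endoplasmic reticulum to the Golgi, where proteases release the part that enters the nucleus and activates genes of both pathways. INSIG1 holds SCAP back when sterol is plentiful, and the liver X receptors turn on genes of sterol export. SREBPs act on promoters together with NF-Y, which binds CCAAT boxes, and with SP1, which binds GC boxes. Growing neurons need both lipids for the membrane of extending axons.

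Proximal promoters of these genes were read from RefSeq sequence (GRCm38.p6). Each window ran from 250 bases before to 50 bases after a start, which for some genes differed from the annotated gene start. This gave 33 windows, for 27 of the 36 genes. *Fdps*, *Fdft1*, *Sqle*, *Scd1*, *Scd2*, *Fads1*, *Stard4*, *Npc1* and *Abcg1* were not among them. The stretches below are shown because they belong to the 4 genes with a window whose values were farthest below wildtype in hypomorphic ganglia at E14.5. They are *Mvd* (chr8:122443423-122443655, minus strand), *Lss* (chr10:76531355-76531564, plus strand), *Mvk* (chr5:114444060-114444263, plus strand) and *Hsd17b7* (chr1:169969243-169969408, minus strand). Each runs 5′ to 3′ along the gene's strand and ends before its annotated start, and capitals mark every CCAAT (or ATTGG, the same letters on the other strand) and every GGGCGG (or CCGCCC).
Mvd: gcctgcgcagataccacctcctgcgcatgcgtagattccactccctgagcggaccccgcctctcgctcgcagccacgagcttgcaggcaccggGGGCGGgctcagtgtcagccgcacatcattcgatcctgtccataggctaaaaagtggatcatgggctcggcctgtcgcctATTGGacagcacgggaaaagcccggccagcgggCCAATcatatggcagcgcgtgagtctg
Lss: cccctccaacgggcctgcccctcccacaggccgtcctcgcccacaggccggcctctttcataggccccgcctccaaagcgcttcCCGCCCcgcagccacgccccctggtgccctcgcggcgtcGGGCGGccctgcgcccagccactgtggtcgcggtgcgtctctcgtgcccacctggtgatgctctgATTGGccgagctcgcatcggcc
Mvk: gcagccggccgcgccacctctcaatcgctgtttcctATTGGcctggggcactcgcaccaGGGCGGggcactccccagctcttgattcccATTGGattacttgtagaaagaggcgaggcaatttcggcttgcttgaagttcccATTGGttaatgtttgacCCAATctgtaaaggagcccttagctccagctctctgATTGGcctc
Hsd17b7: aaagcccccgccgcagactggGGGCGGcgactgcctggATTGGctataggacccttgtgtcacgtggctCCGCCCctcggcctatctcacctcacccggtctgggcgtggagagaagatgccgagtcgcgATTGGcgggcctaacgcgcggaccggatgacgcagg

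The stretch of *Mvk*, mevalonate kinase, held 5 CCAAT matches and 1 GGGCGG match. Those of *Mvd*, mevalonate diphosphate decarboxylase, and *Hsd17b7*, the ketosteroid reductase of the sterol branch, held 2 CCAAT matches each, with 1 and 2 GGGCGG matches. The stretch of *Lss*, lanosterol synthase, which closes the first sterol ring system, held 1 CCAAT match and 2 GGGCGG matches. A match is a run of letters and not a measured binding site.

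Over whole windows, both strands searched, CCAAT was found for 20 of the 27 genes (74.1%), against 42.8% of the 9822 genes of the E14.5 table with a window and 41.1% of all 27025 genes with one. GGGCGG was found for 21 of the 27 (77.8%), against 70.4% and 38.2%. Both were found for 17 of the 27 (63.0%), against 30.1% and 15.8%. The first windows of the 27 genes had a median GC content of 60.3%, and those of the genes of the E14.5 table had a median of 61.3%.

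The roles differed in these shares. All 9 genes from squalene to cholesterol with a window held both sets of letters, as did 4 of 6 mevalonate genes and 3 of 4 SREBP genes. Among fatty acid genes both were found for 1 of 6, *Acly*, and among transport and LXR genes for 0 of 2. The letters of the sterol regulatory element were searched as TCACNCCAC on both strands. They were found for 1 of the 27 genes, *Hmgcs1*, at position -137 from the start used for its window, and for 1.44% of all genes. The looser TCANNCCAC, which includes the former, was found for *Hmgcs1*, *Acly* and *Acacb*, against 4.78% of all genes. CCAAT and GGGCGG can share bases on opposite strands, and they did so in the windows of 0 of the 27 genes and of 104 of all genes.

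**Figure D1:**
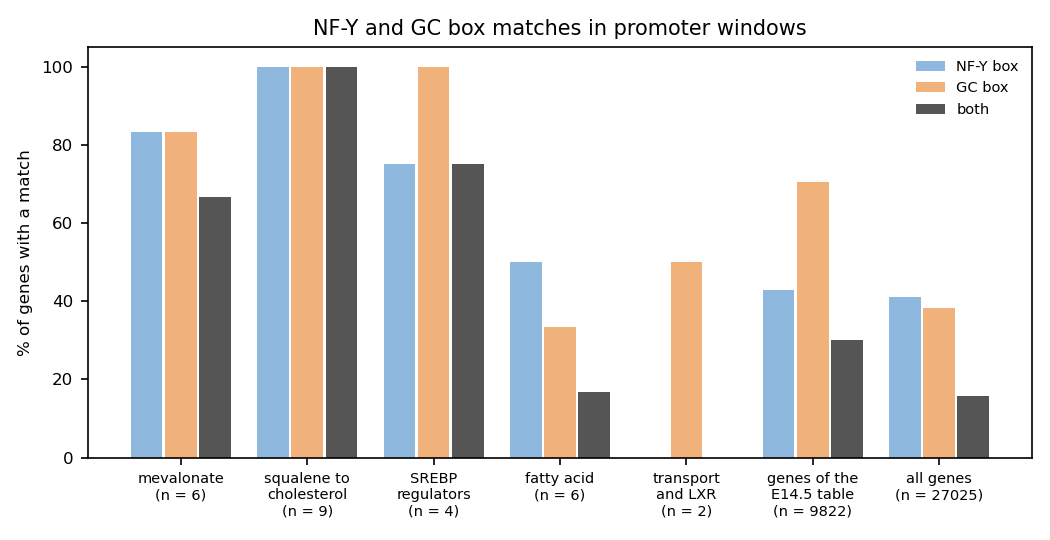
Share of genes, in %, with the NF-Y (CCAAT) box letters, the GC box letters or both in any promoter window. Windows run from 250 bases before to 50 after a RefSeq start (GRCm38.p6). Shares are given by role and for 2 backgrounds, with the number of genes under each group. Both were found for all 9 genes from squalene to cholesterol, for 1 of 6 fatty acid genes and for 30.1% of the genes of the E14.5 table.

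At E14.5 the genes of lipid synthesis were lower in *Isl1* hypomorphic than in wildtype ganglia, each by a small amount. All 25 measured synthesis enzymes had lower FPKM in hypomorphic ganglia, 17 of the sterol branch and 8 of the fatty acid branch, whereas 49.3% of all genes in the table were lower. The median log2 ratio was -0.33 for the sterol branch and -0.28 for the fatty acid branch, against 0.00 for all genes. The 4 SREBP genes were all lower with a median of -0.18, and the 5 transport and LXR genes had a median of 0.01. No gene of the list reached 1.5-fold, a threshold that 2.12% of all genes passed as lower and 2.89% as higher. At 1.2-fold, 18 of 34 genes were lower and 2 were higher, where 9.01% of all genes were lower and 12.2% were higher. In bulk tissue, fewer cells of a type and less RNA per cell cannot be told apart.

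Of the 36 genes, 13 also stand among the cholesterol and lipid biosynthesis genes that the study annotated from its own lower genes at E14.5. The study called lower genes at that stage by cuffdiff's p-value over its libraries, a call not repeated here. The 13 are therefore not independent evidence of the direction. These 13 had log2 ratios from -0.55 to -0.32. The 21 other measured genes had a median of -0.18, with 18 lower and 3 higher, and 5 were lower by at least 1.2-fold. The 13 synthesis enzymes among them were all lower, with a median of -0.23. All 36 genes were chosen with earlier results of these data known, so these other genes are not independent evidence either.

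Within the mevalonate pathway, *Mvd* was at 53.5 FPKM in wildtype and 36.6 FPKM in hypomorphic ganglia, a log2 ratio of -0.55. *Mvk* was at 52.8 and 37.3 FPKM, a log2 ratio of -0.50. *Fdps*, which makes farnesyl diphosphate, was at 58.1 and 43.4 FPKM, a log2 ratio of -0.42. These 3 ratios stood at percentiles 2.33, 2.82 and 4.0 of all genes. *Acat2*, the cytosolic acetoacetyl-CoA thiolase at the entry of the pathway, was at 89.8 and 74.4 FPKM (-0.27). *Pmvk*, phosphomevalonate kinase, was at 44.3 and 39.1 FPKM (-0.18). *Idi1*, isopentenyl diphosphate isomerase, was at 2.06 and 1.94 FPKM (-0.08), the lowest level of the 34 genes at this stage. All 6 measured genes were thus lower in hypomorphic ganglia, 4 of them by at least 1.2-fold.

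From squalene to cholesterol all 11 genes were lower, and 9 of them lay between log2 ratios of -0.54 and -0.32. *Lss* was at 57.3 FPKM in wildtype and 39.5 FPKM in hypomorphic ganglia (-0.54). *Hsd17b7* was at 18.9 and 14 FPKM (-0.43). *Tm7sf2*, a sterol reductase that acts after lanosterol is demethylated, was at 38.5 and 29.3 FPKM (-0.39). *Nsdhl*, which takes part in removing methyl groups from the ring, stood close to it at 55.9 and 43.0 FPKM (-0.38). The next genes formed a narrow band. *Cyp51*, the lanosterol demethylase, was at 87.5 and 69.4 FPKM (-0.34). *Sqle*, squalene epoxidase and the most abundant of the 11, was at 152 and 121 FPKM (-0.33). *Fdft1*, squalene synthase, was at 55.7 and 44.4 FPKM (-0.33). *Sc5d*, the sterol desaturase, and *Dhcr7*, the reductase that ends one route to cholesterol, completed this band. *Sc5d* was at 29.3 and 23.2 FPKM (-0.33). *Dhcr7* was at 53.3 and 42.6 FPKM (-0.32). The smallest differences were those of 2 genes in the middle of the branch. *Msmo1*, the methylsterol monooxygenase, was at 84.5 and 71.8 FPKM (-0.23). *Ebp*, a sterol isomerase, was at 22.2 and 21.4 FPKM (-0.05). Summed over mevalonate and later genes, the sterol branch was at 956 FPKM in wildtype and 752 FPKM in hypomorphic ganglia.

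**Figure D2:**
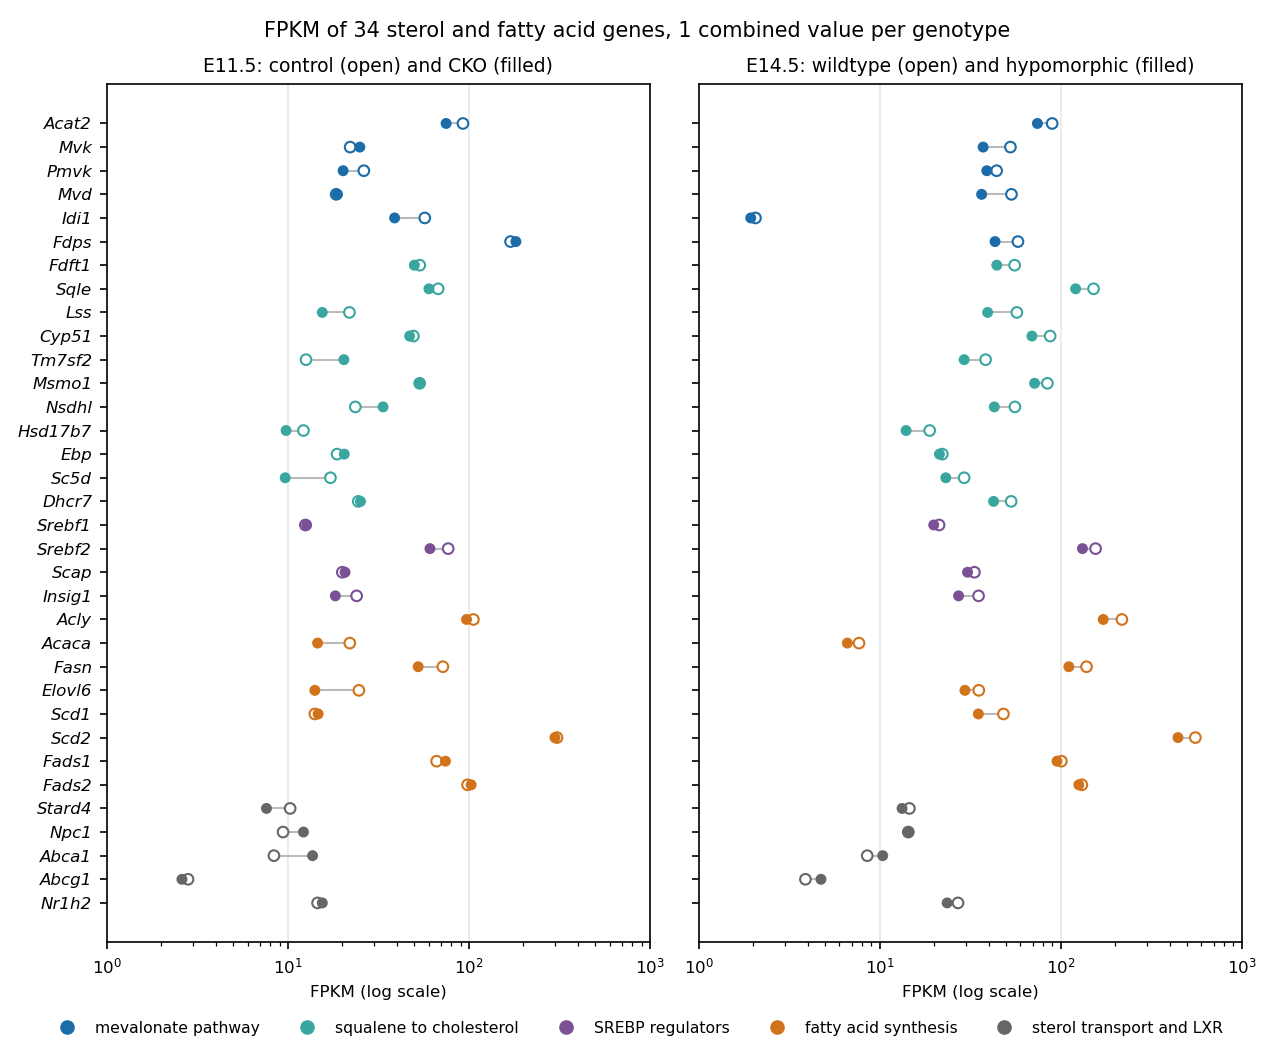
FPKM (log axis) of the 34 measured genes, at E11.5 in control (open circles) and CKO ganglia (filled circles) and at E14.5 in wildtype (open) and hypomorphic ganglia (filled), coloured by role, each circle being 1 value that combines 2 libraries. At E14.5 the filled circle lies to the left of the open circle for 31 of 34 genes, and at E11.5 for 18 of 34.

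Among the SREBP genes, *Insig1*, the sterol-dependent brake and itself a known SREBP target, was the one past 1.2-fold, at 35.2 FPKM in wildtype and 27.3 FPKM in hypomorphic ganglia (-0.36). *Srebf2*, which encodes the SREBP that acts mainly on sterol genes, was at 156 and 132 FPKM (-0.24). *Scap*, the escort protein, was at 33.4 and 30.6 FPKM (-0.13). *Srebf1*, which encodes the SREBP isoforms that act mainly on fatty acid genes, was at 21.3 and 19.9 FPKM (-0.10), so the range of the 4 ratios overlapped that of both enzyme branches.

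In the fatty acid branch, *Scd1*, a stearoyl-CoA desaturase, showed the largest difference, with 48.3 FPKM in wildtype and 35.1 FPKM in hypomorphic ganglia (-0.46). *Acly*, ATP citrate lyase, which supplies cytosolic acetyl-CoA to both pathways, was at 218 and 172 FPKM (-0.34). *Fasn*, fatty acid synthase, was at 139 and 111 FPKM (-0.33). *Scd2*, the second desaturase and the most abundant of all 34 genes, was at 555 and 445 FPKM (-0.32). These 4 genes were past 1.2-fold and the other 4 were not. *Elovl6*, which elongates saturated fatty acids, was at 35.3 and 29.6 FPKM (-0.25). *Acaca*, acetyl-CoA carboxylase, was at 7.69 and 6.63 FPKM (-0.21). *Fads1* and *Fads2*, the desaturases of polyunsaturated fatty acids, differed least. *Fads1* was at 101 and 95.5 FPKM (-0.08). *Fads2* was at 131 and 126 FPKM (-0.06). The 8 genes summed to 1240 FPKM in wildtype and 1020 FPKM in hypomorphic ganglia.

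The transport and LXR genes were split, with 3 higher and 2 lower in hypomorphic ganglia, and their median of 0.01 became -0.06 when an FPKM of at least 5 was required. *Abca1*, which exports cholesterol and is turned on by LXR, was at 8.54 FPKM in wildtype and 10.4 FPKM in hypomorphic ganglia (0.28). *Abcg1*, another LXR-driven exporter, was at 3.89 and 4.74 FPKM (0.28). *Npc1*, which moves sterol out of lysosomes, was at 14.4 and 14.5 FPKM (0.01). These 3 were the only genes of the list with higher values in hypomorphic ganglia. *Nr1h2*, which encodes an LXR, was at 27.1 and 23.6 FPKM (-0.20). *Stard4*, a carrier of sterol between membranes, was at 14.6 and 13.3 FPKM (-0.13). Centring on the median of all genes and rescaling FPKM without erythroid genes left 31 of 34 genes lower at E14.5.

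**Figure D3:**
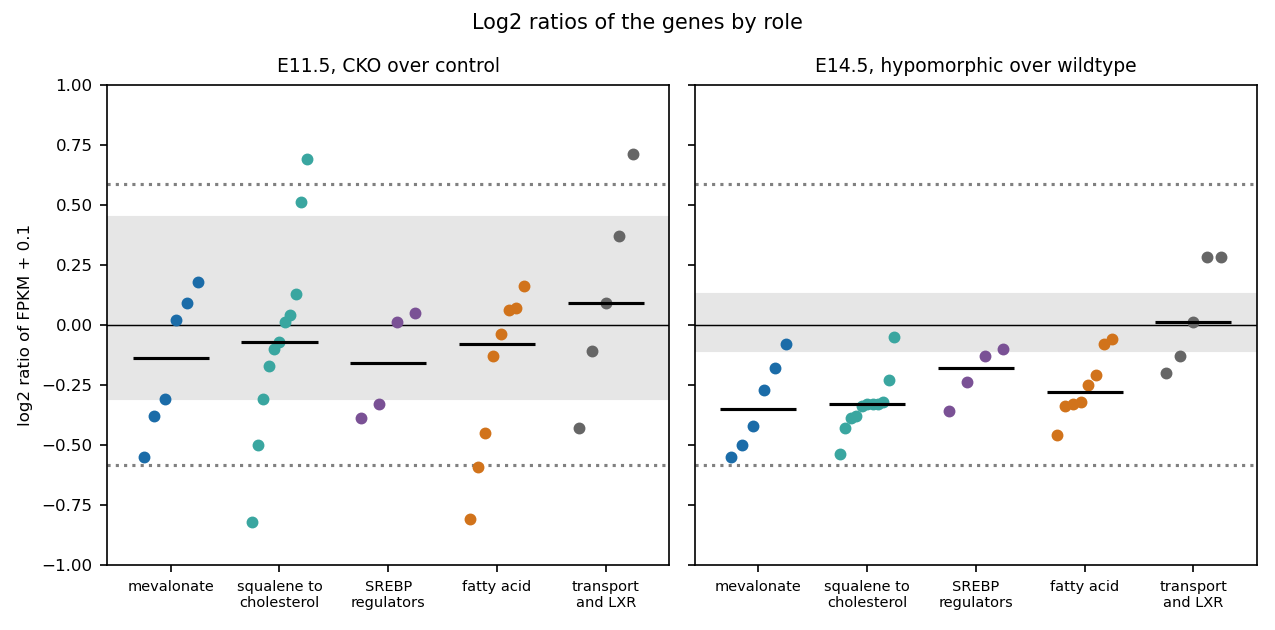
Log2 ratio of FPKM + 0.1 for each gene (points) by role at E11.5 (CKO over control) and E14.5 (hypomorphic over wildtype), with the median of each role (black bars), the middle 50% of all genes (grey band, from -0.31 to 0.45 at E11.5 and from -0.11 to 0.13 at E14.5) and 1.5-fold (dotted lines). At E14.5 the medians of the enzyme groups and of the SREBP genes lie below the band, while at E11.5 the medians of all 5 groups lie inside it.

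At E11.5 the same genes were spread to both sides in *Isl1* CKO ganglia. Of 34 genes, 18 were lower and 16 were higher, with a median log2 ratio of -0.05, whereas 46.1% of all genes were lower and their median was 0.05. At 1.5-fold, 3 genes were lower and 2 were higher, while 12.9% of all genes were lower and 18.9% were higher. At 1.2-fold, 12 were lower and 4 were higher, where 27.5% of all genes were lower and 34.8% were higher. The medians were -0.14 for mevalonate genes, -0.07 from squalene to cholesterol, -0.16 for SREBP genes, -0.08 for fatty acid genes and 0.09 for transport and LXR genes, and the ranges of the 5 groups overlapped.

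This split depended on the scaling. The sum of all FPKM was 476289 for control and 617263 for CKO ganglia, of which erythroid genes took 2.29% and 11.2%. Setting the sums without erythroid genes equal moved all genes down together, to a median of -0.18 with 63.4% of genes lower. Of the 34 genes, 30 were then lower and 4 were higher. At 1.5-fold 9 were then lower and 0 higher, where 22.5% of all genes were lower and 12.2% were higher. Under that scaling the median of the 34 genes was -0.29.

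One of the 3 genes lower at 1.5-fold, *Sc5d*, belongs to the sterol branch, and the other two, *Elovl6* and *Acaca*, belong to the fatty acid branch and have coding sequence that is partly repeated elsewhere in the genome (45.9% and 75.5% of its 31-base words). Without the 8 genes that have over 25% of such words, 1 gene was lower at 1.5-fold. *Sc5d* (mm9, chromosome 9, 42062260 to 42072383) was at 17.2 FPKM in control and 9.67 FPKM in CKO ganglia (-0.82). *Elovl6* (mm9, chromosome 3, 129235304 to 129341413) was at 24.7 and 14.1 FPKM (-0.81). *Acaca* (mm9, chromosome 11, 83943174 to 84215153) was at 22 and 14.6 FPKM (-0.59). The next lower values were those of *Idi1*, *Lss* and *Fasn*. *Idi1* was at 57.1 FPKM in control and 38.9 FPKM in CKO ganglia (-0.55). *Lss* was at 21.9 and 15.5 FPKM (-0.50). *Fasn* was at 71.9 and 52.5 FPKM (-0.45).

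The 2 genes higher at 1.5-fold were *Abca1* (mm9, chromosome 4, 53043659 to 53172767), at 8.38 FPKM in control and 13.7 FPKM in CKO ganglia (0.71), and *Tm7sf2* (mm9, chromosome 19, 6062821 to 6068373), at 12.6 and 20.4 FPKM (0.69). *Nsdhl* came next, at 23.6 and 33.6 FPKM (0.51), and then *Npc1*, at 9.41 and 12.2 FPKM (0.37). After rescaling without erythroid genes these 4 remained the genes with higher values, at 0.47 for *Abca1*, 0.46 for *Tm7sf2*, 0.27 for *Nsdhl* and 0.14 for *Npc1*.

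Before rescaling without erythroid genes, which moved all genes down together, several of the genes with the largest differences at E14.5 were close to even at E11.5. *Lss* was not (-0.50). *Mvd* was at 18.5 FPKM in control and 18.8 FPKM in CKO ganglia (0.02). *Scd1* was at 14.1 and 14.7 FPKM (0.06). *Fdps* was at 170 and 182 FPKM (0.09), and *Mvk*, at 22.1 and 25 FPKM (0.18), was slightly higher. *Hsd17b7* was lower, at 12.2 and 9.78 FPKM (-0.31). The 3 most abundant fatty acid genes at this stage were also close to even. *Scd2* was at 307 and 299 FPKM (-0.04), *Acly* at 106 and 97.1 FPKM (-0.13), and *Fads2* at 98.4 and 103 FPKM (0.07). Among the regulators, *Srebf2* was at 76.9 and 61.0 FPKM (-0.33) and *Insig1* at 24.0 and 18.3 FPKM (-0.39), while *Srebf1* and *Scap* had log2 ratios of 0.01 and 0.05. *Stard4*, at 10.3 and 7.62 FPKM (-0.43), *Pmvk*, at 26.3 and 20.2 FPKM (-0.38), and *Acat2*, at 92.8 and 74.9 FPKM (-0.31), were past 1.2-fold as well. The remaining 8 genes (*Sqle*, *Fdft1*, *Cyp51*, *Msmo1*, *Dhcr7*, *Ebp*, *Fads1* and *Nr1h2*) had log2 ratios from -0.17 to 0.16, and so did *Abcg1* (-0.11). The 2 stages used different alleles, dissections and separately normalized tables, so a difference between their ratios was not tested.

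Most of these transcripts had higher FPKM in control ganglia at E14.5 than at E11.5. Wildtype ganglia at E14.5 were above control ganglia at E11.5 for 30 of 34 genes, and for 64.1% of all shared genes. At 1.5-fold, 22 genes were higher and 3 were lower, where 29.7% of the 12666 genes shared by the tables were higher and 12.8% were lower. The median log2 ratio was 0.74 for the 34 genes and 0.24 for all shared genes, and after centring on that median 14 genes were higher and 3 lower, where 19.2% of all shared genes were higher and 19.5% lower. The median was 0.82 from squalene to cholesterol, 0.75 for SREBP genes, 0.73 for fatty acid genes, 0.49 for transport and LXR genes and 0.35 for mevalonate genes. The mevalonate median became 1.25 without the genes that have copies elsewhere, described below, and -0.05 without the genes the study annotated. Sympathetic neuron markers also had a median of 0.74 between the stages, with 10 higher and 2 lower. Mesenchyme markers had a median of 0.58, with 6 higher and 4 lower. The part of cell types in the stage difference was not tested. These are levels set across 2 tables that were normalized separately, and the E14.5 wildtype values are the same ones that the hypomorphic ganglia were compared with.

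The steepest increases between the stages were those of *Scd1*, from 14.1 to 48.3 FPKM (1.77), *Tm7sf2*, from 12.6 to 38.5 FPKM (1.60), and *Mvd*, from 18.5 to 53.5 FPKM (1.53). *Lss* went from 21.9 to 57.3 FPKM (1.38) and *Mvk* from 22.1 to 52.8 FPKM (1.25). At both stages *Scd2* was the most abundant of the 34 genes, at percentile 98.5 of all control levels at E11.5 and 99.5 at E14.5. *Abcg1* was the least abundant at E11.5, with 2.81 FPKM, and *Idi1* at E14.5.

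The 3 genes lower by at least 1.5-fold at E14.5 were *Idi1*, from 57.1 to 2.06 FPKM (-4.73), *Fdps*, from 170 to 58.1 FPKM (-1.55), and *Acaca*, from 22 to 7.69 FPKM (-1.50). The share of the 31-base words of their coding sequence that occur elsewhere in the mm9 genome was 86.1% for *Idi1*, 89.3% for *Fdps* and 75.5% for *Acaca*, the highest shares among the 35 genes with an annotated locus. *Acat2* followed with 67.9% and a log2 ratio of -0.05, and *Fdft1* with 49.7% and a ratio of 0.06. *Elovl6*, *Scd1* and *Scd2* had shares of 45.9%, 34% and 27.5%, and of the other genes only *Insig1*, at 15.7%, was above 10%. Fragments of such genes can match a copy equally well, and the study's methods state that only uniquely mapped reads went into the assembly. The levels of these genes are therefore uncertain, and the part of this in the stage difference was not tested. The 26 measured genes at or under 25% were all higher at E14.5, with log2 ratios from 0.03 to 1.60 and 20 past 1.5-fold. In the hypomorphic comparison these 26 genes had a median of -0.28, with 23 lower, and the 8 genes over 25% had a median of -0.29, with 8 lower.

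**Figure D4:**
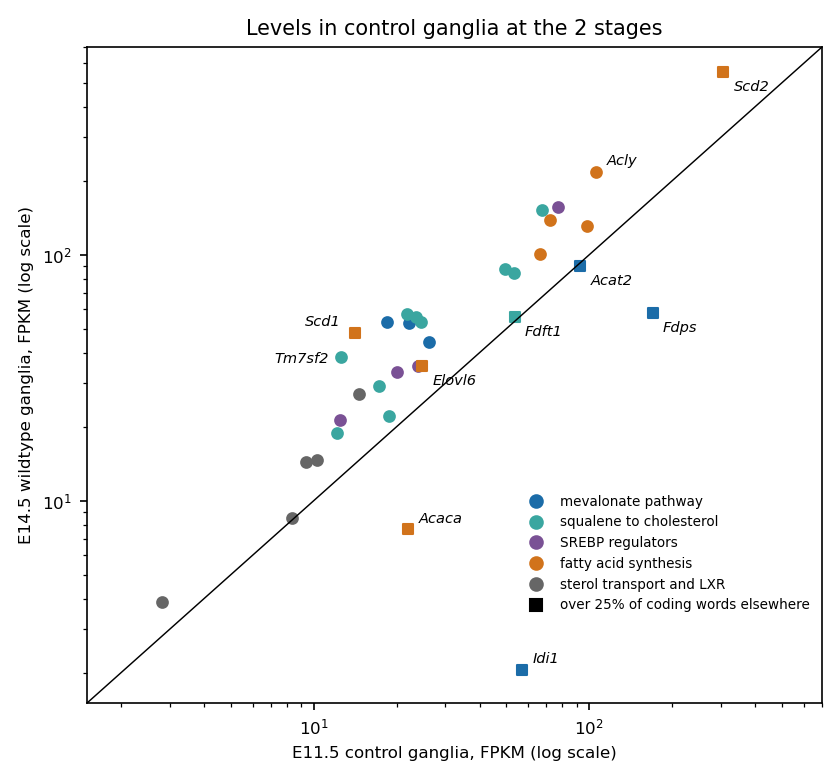
FPKM of the 34 genes in E11.5 control ganglia (x axis) and E14.5 wildtype ganglia (y axis), both on log axes with the line of equal level, coloured by role, with squares for the 8 genes that have over 25% of their 31-base coding words elsewhere in the genome. All 26 circles lie above the line, and *Idi1*, *Fdps* and *Acaca* lie farthest below it.

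Other genes of the same pathways were described from lists that hold none of the 36. Of 21 measured further fatty acid genes, 15 were lower in hypomorphic ganglia at E14.5, against 49.3% of all genes, with a median of -0.09. At 1.2-fold, 6 of the 21 were lower and 1 was higher, where 9.01% of all genes were lower and 12.2% were higher. The largest of these differences were those of *Acss2*, which makes acetyl-CoA from acetate, at 16.6 and 11.8 FPKM (-0.48), and *Slc25a1*, the mitochondrial citrate carrier, at 96.9 and 72.3 FPKM (-0.42). They supply the same acetyl-CoA pool as *Acly*, and were picked for naming after their values were seen, as no gene of these lists reached 1.5-fold at E14.5. The 6 further genes of SREBP processing, including the proteases *Mbtps1* and *Mbtps2*, had a median of 0.05 with none past 1.2-fold. The 10 measured further isoprenoid and sterol genes had a median of 0.03, and the 11 further transport genes a median of -0.07 with none past 1.2-fold.

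At E11.5 the 11 further transport genes had a median of 0.43, with 4 higher and 2 lower at 1.5-fold, against 18.9% and 12.9% of all genes. *Lrp8*, a lipoprotein receptor of neurons, was at 9.94 FPKM in control and 4.62 FPKM in CKO ganglia (-1.09). *Mylip*, which marks lipoprotein receptors for degradation, was at 6.15 and 9.82 FPKM (0.67). *Stard3*, a late endosomal sterol carrier, was at 8.06 and 12.6 FPKM (0.64). The 21 further fatty acid genes had a median of 0.05, with 4 lower and 2 higher at 1.5-fold, where 12.9% of all genes were lower and 18.9% were higher. *Acsl6*, an acyl-CoA synthetase, was at 5.34 and 3.07 FPKM (-0.78). *Elovl7*, a fatty acid elongase, was at 6.42 and 4.01 FPKM (-0.66). *Elovl1*, the elongase of very long saturated chains, was at 14.6 and 23.1 FPKM (0.66). Of the 11 further isoprenoid and sterol genes, *Pdss1*, which builds the side chain of ubiquinone, was at 8.29 and 5.39 FPKM (-0.61). The median of that list was 0.01 and that of the 6 genes of SREBP processing was 0.04, both close to the 0.05 of all genes.

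Markers of several cell types moved with the genotype, and their part in the results above was not tested. At E14.5 all 10 mesenchyme markers were higher in hypomorphic ganglia (summed FPKM 1580 in wildtype and 1760 in hypomorphic ganglia), led by *Col1a1* and *Col1a2*, as were all 10 endothelial markers (109 and 151), 13 of 14 measured erythroid markers (5640 and 6850), 6 of 7 liver markers (49.3 and 67.4) and all 8 measured macrophage markers (56.5 and 67.5). Neural crest and glial markers were higher for 9 of 10 (512 and 580), and sympathetic neuron markers were lower for 7 of 12 (5320 and 4460). At E11.5 all 10 neural crest and glial markers were higher in CKO ganglia (323 and 712), led by *Fabp7* and *Ednrb*, and so were all 10 mesenchyme (768 and 1310), all 10 endothelial (81.1 and 106) and all 6 measured liver markers (17.5 and 30.8). All 8 measured macrophage markers (45.2 and 102) and 11 of 12 measured erythroid markers (10900 and 69100) were higher too, while the erythroid marker *Hbb-y*, an embryonic globin, was listed at 0 in CKO ganglia. Sympathetic neuron markers were lower for 10 of 12 (3160 and 2800). The sum of all FPKM was also larger in CKO ganglia, so shares of it differ from these sums. Endothelial markers took 0.017% of it in control and 0.0171% in CKO ganglia, and mesenchyme markers took 0.161% and 0.212%. The shares were 0.0679% and 0.115% for neural crest and glial, 0.00367% and 0.00499% for liver, and 0.00948% and 0.0165% for macrophage markers. Those of sympathetic neuron markers were 0.664% and 0.453%. Of 10 markers of the adrenal cortex, whose cells make steroids from cholesterol, 4 were listed at E11.5 (summed FPKM 21.9 in control and 32.8 in CKO ganglia), with 3 higher and 1 lower, and 3 at E14.5 (25.2 and 28.6), all higher. *Fdx1* and *Fdxr*, which pass electrons to steroid-making enzymes, were its most abundant genes, except in CKO ganglia, where *Hsd3b1* (7.44 FPKM) was above *Fdxr* (6.32 FPKM). *Hsd3b1*, a steroid dehydrogenase, was at 0.622 and 7.44 FPKM at E11.5, and *Star*, which brings cholesterol into mitochondria, was at 3.2 and 1.95 FPKM, both named after their values were seen. The remaining 6, among them *Cyp11a1* and *Nr5a1*, were not analysed here. No marker of the mesenchyme, endothelial, neural crest and glial, and neuron lists was at 0.

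Genes with both promoter boxes and the remainder were also set side by side. The 16 measured genes with both had a median log2 ratio of -0.34 at E14.5, from -0.55 to -0.05, and the 9 with a window but not both had a median of -0.20, from -0.33 to 0.28. At E11.5 the medians were -0.03 and -0.31, in the opposite order. The ranges overlapped at both stages. The 9 genes without a window had medians of -0.32 at E14.5 and -0.04 at E11.5. Having both boxes also went with role, as all 9 genes from squalene to cholesterol with a window had both, against 1 of 6 fatty acid genes. The part of role in these medians was not tested.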

How the data were processed

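RNA-seq of pooled sympathetic ganglia was used, with 2 libraries per genotype and stage, and samples were grouped by the genotype and stage in their labels. Per the study's methods, the authors aligned reads to mm9 with TopHat, and the deposited FPKM is cuffdiff's estimate over both libraries of a genotype. The submitters' processing notes name TopHat 1.3.1, Cuffdiff 1.3.0, Bowtie and the build dm3. All deposited genes reach an FPKM of 1 in at least one genotype. Further columns, which hold cuffdiff's own fold changes (log2) and p-values without adjustment, were not used. Depth per library is unknown.

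Log2 ratios used a pseudocount of 0.1 FPKM, and 1.5-fold was counted. No test was made. The 36 genes, the other lists and the thresholds were chosen with earlier results of these data known. All 36 genes were named, and of each further list those past 1.5-fold with an FPKM of at least 5, at most 3 per list and stage, and the 2 most abundant of a marker list where named. Coordinates and 31-base words came from mm9 and its GENCODE annotation, and promoters from RefSeq. Alternatives were the pseudocount, the filter, the scaling, the fold, and lists without the genes the study annotated. The steps were tested on simulated data. Python 3.11.15, numpy 2.4.6, pandas 2.3.3 and matplotlib 3.10.9 were used.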

Additional observations from a re-analysis of the deposited data

Results flagged for a closer look

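Of the 34 genes and the further genes of their pathways, 6 had log2 ratios of opposite sign at the 2 stages, each by at least 1.2-fold. Because each genotype has 1 combined value, the difference was not tested for any of them, and the stages also differ in allele, dissection and table.

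*Tm7sf2* had a log2 ratio of 0.69 at E11.5 and -0.39 at E14.5, and *Nsdhl* had 0.51 and -0.38. Both act on sterols after lanosterol, and they were the 2 genes from squalene to cholesterol with the highest ratios at E11.5. *Acss2* had 0.35 and -0.48, *Slc25a1* had 0.64 and -0.42, and *Tecr*, the reductase that ends each round of fatty acid elongation, had 0.36 and -0.31. *Oxsm*, a mitochondrial fatty acid synthase enzyme, was the one with the lower value at E11.5 and the higher value at E14.5 (-0.36 and 0.30).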

How the results depend on the processing

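Of 264 recomputed counts and medians, 243 stayed within the limits (a count within 1.5 times, a median within 0.26 on the log2 scale with its sign), 14 moved and 7 changed sign. At E11.5 the 3 lower and 2 higher genes became 9 and 0 after rescaling without erythroid genes, 12 and 4 at 1.2-fold, and 0 and 0 at 2-fold. At E14.5 the counts of 0 became 18 lower and 2 higher at 1.2-fold. Between control ganglia, the 22 higher genes became 14 after centring on the median, 10 at 2-fold and 11 without the genes the study annotated. The transport and LXR median changed sign at E11.5 to -0.14 after rescaling without erythroid genes, and at E14.5 to -0.06 with an FPKM of at least 5. Without the genes the study annotated, the E11.5 medians from squalene to cholesterol and of SREBP genes became 0.01 and 0.01, and the mevalonate median between controls became -0.05. Without the 8 genes with copies elsewhere, an alternative chosen after seeing the data, the lower count at E11.5 became 1, the E11.5 medians of mevalonate genes and of all genes of the list became 0.02 and 0.01, no gene (0) was lower between controls, and the mevalonate median between controls became 1.25. The causes of these changes were not tested.

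No paired analysis was possible because the deposited columns combine the 2 libraries of a genotype, and no fit without 1 library was run for the same reason.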
